A study of Mus musculus with 6 samples.

Results

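Serpin B genes encode the clade B serpins, protease inhibitors that mostly stay inside the cell. An inhibitory serpin presents a flexible loop as bait, and the protease that cuts this loop is locked to the serpin and inactivated. Squamous epithelia such as the epidermis make many of them, and they are known there for guarding keratinocytes against cathepsins, plasminogen activators and other proteases. The genes described here were taken by symbol from the deposited table, namely Serpinb1a, Serpinb2, Serpinb3a, Serpinb3b, Serpinb3c, Serpinb3d, Serpinb5, Serpinb7, Serpinb11 and Serpinb12, and all 10 were found among 47729 genes. Of these 9 passed the filter on low counts, and Serpinb3c did not.

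The tissue was epidermis of wild type C57BL/6 mice, lifted off the dermis with Dispase II and read by RNA sequencing. The skin carried a gel with AKBA (3 libraries) or a control gel without it (3 libraries). AKBA usually stands for acetyl-11-keto-β-boswellic acid, which comes from the resin of Boswellia trees. The control libraries also carry the letters IMQ, which are not explained in the labels, and no label says whether both groups shared a further treatment, nor whether libraries of a group came from separate mice, so p-values measure the spread between libraries, which may be technical. Libraries held 19066045 to 22760432 counts, and 3 counts correspond to 0.132 to 0.157 CPM (counts scaled to library size). Keratinocyte markers were abundant, with summed levels of 33462 to 61361 CPM with AKBA gel against 24674 to 37605 CPM with control gel for 6 upper layer markers. The libraries also held 6 dermal fibroblast markers at 19437 to 25765 CPM with AKBA gel against 18754 to 35288 CPM with control gel, and 6 hair follicle markers at 27.3 to 2078 CPM with AKBA gel against 100.5 to 2975 CPM with control gel. A further 5 markers, of skeletal muscle, summed to 3752 to 4433 CPM with AKBA gel against 2882 to 6296 CPM with control gel. The libraries thus describe a mixed tissue that was not epidermis alone. In such bulk samples fewer cells of a type and less RNA per cell cannot be told apart.

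Promoter sequences are shown first for 3 of the 4 Serpinb3 copies, because nearly the same sequence stood near RefSeq starts of genes with very different levels. These are stretches of 116 bases from RefSeq windows on GRCm38.p6, each a window from 250 bases before to 50 bases after an annotated start, and capitals mark the letters TATAAA. These letters began at position -65 from the RefSeq start in Serpinb3a, -41 in Serpinb3b and -31 in Serpinb3c.
Serpinb3a, chr1:107052313-107052428, minus strand: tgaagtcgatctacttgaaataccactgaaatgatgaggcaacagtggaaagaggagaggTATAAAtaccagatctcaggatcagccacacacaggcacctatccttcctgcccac
Serpinb3b, chr1:107161100-107161215, minus strand: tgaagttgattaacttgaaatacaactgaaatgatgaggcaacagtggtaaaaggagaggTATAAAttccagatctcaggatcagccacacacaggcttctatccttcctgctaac
Serpinb3c, chr1:107278347-107278462, minus strand: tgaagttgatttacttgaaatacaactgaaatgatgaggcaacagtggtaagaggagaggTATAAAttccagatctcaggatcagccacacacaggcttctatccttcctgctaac
The Serpinb3b and Serpinb3c stretches differed at 2 of 116 bases, and Serpinb3a differed from Serpinb3b at 11 and from Serpinb3c at 9. GENCODE M21 puts the 5′ end of Serpinb3b at 107278361, inside the stretch named here for Serpinb3c, so in that annotation this stretch stands at the start of both genes, and the stretch named for Serpinb3b lies inside its span. The window of Serpinb3d was not alike, with 48.0% to 48.4% of aligned bases identical to the windows of the other copies.

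Windows of 300 bases are shown next for Serpinb7 and Serpinb2, which are neighbours on chromosome 1 and had the most opposed values of the 10 genes. Both strands were searched for letters known from 5 kinds of site, and capitals mark every match. The grainyhead-like letters are given below and the other 4 kinds here. The AP-1 letters were TGANTCA. The TATA letters were TATAAA as above. For STAT factors TTCNNNGAA was used. For C/EBP factors TTGCNNAA was used.
Serpinb7, chr1:107422439-107422738, plus strand: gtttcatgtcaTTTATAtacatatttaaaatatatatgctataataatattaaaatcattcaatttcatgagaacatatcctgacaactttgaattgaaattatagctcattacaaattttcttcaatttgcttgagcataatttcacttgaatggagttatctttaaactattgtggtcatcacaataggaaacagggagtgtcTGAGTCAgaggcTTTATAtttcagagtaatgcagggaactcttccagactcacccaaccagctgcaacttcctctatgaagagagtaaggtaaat
Serpinb2, chr1:107511173-107511472, plus strand: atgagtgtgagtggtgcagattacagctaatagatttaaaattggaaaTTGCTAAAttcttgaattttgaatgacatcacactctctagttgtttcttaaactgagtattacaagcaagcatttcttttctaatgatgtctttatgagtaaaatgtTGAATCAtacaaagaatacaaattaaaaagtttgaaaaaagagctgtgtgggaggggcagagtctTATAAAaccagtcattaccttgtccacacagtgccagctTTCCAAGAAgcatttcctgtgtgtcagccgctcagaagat
In Serpinb7 the AP-1 letters began at position -45 from the start and TATA letters, on the opposite strand, at -239 and -33. This RefSeq start lies inside the gene span that GENCODE M21 gives. In Serpinb2 the AP-1 letters began at -94, TATA at -29, the STAT letters at 11 and the C/EBP letters at -202. A window was found for 9 of the 10 genes, and AP-1 letters were in windows of 5 of them (Serpinb2, Serpinb5, Serpinb7, Serpinb11 and Serpinb12), against 7.81% of all 32851 windows. TATA letters were in windows of 7 of the 9 (13.6% of all windows), C/EBP letters in 3 (10.8%), STAT letters in 1 (8.30%) and the grainyhead-like letters AACNNGTT in 0 (4.20%). The 9 genes had 11 windows, and a gene was counted if any of its windows matched, whereas the shares count single windows. The 7 genes with TATA letters include Serpinb3a, Serpinb3b and Serpinb3c, whose stretches are nearly the same and so are not separate cases. These matches describe letters only.

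Levels of different genes are given per length, as the FPKM the authors deposited (fragments scaled to transcript length and to library size). Serpinb5, also called maspin and not known to inhibit a protease, was highest, at 182 ± 32.9 FPKM with AKBA gel and 173 ± 26.2 FPKM with control gel (SD, n = 3 each, as throughout). Serpinb12, an inhibitor of trypsin-like proteases, was at 165 ± 48.0 with AKBA gel and 119 ± 19.7 FPKM with control gel, and Serpinb3a at 143 ± 38.4 with AKBA gel and 129 ± 47.9 FPKM with control gel. These 3 genes did not differ from one another beyond their spread with AKBA gel. Next came Serpinb3b (59.0 ± 14.6 with AKBA gel and 69.4 ± 12.5 FPKM with control gel), Serpinb7 (52.2 ± 24.5 with AKBA gel and 19.0 ± 6.73 FPKM with control gel) and Serpinb2 (32.4 ± 12.1 with AKBA gel and 80.2 ± 54.2 FPKM with control gel). Serpinb11 was at 23.1 ± 8.04 with AKBA gel and 31.6 ± 9.72 FPKM with control gel, and Serpinb1a at 13.1 ± 1.52 with AKBA gel and 27.0 ± 14.0 FPKM with control gel. Serpinb3d (2.27 ± 1.35 with AKBA gel and 3.28 ± 1.61 FPKM with control gel) and Serpinb3c (0.103 ± 0.0907 with AKBA gel and 0.0733 ± 0.0321 FPKM with control gel) were the lowest. Serpinb7 thus stood above Serpinb2, Serpinb11 and Serpinb1a in mean level with AKBA gel and below all 3 with control gel. With AKBA gel the mean ± SD ranges of Serpinb3b, Serpinb7, Serpinb2 and Serpinb11 each overlapped with the next in that order, and with control gel so did those of Serpinb5, Serpinb3a, Serpinb12, Serpinb2 and Serpinb3b, and of Serpinb11, Serpinb1a and Serpinb7. The 10 genes made up 85.9% to 88.0% of the summed FPKM of all clade B serpins with AKBA gel and 84.9% to 86.7% with control gel.

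**Figure D1:**
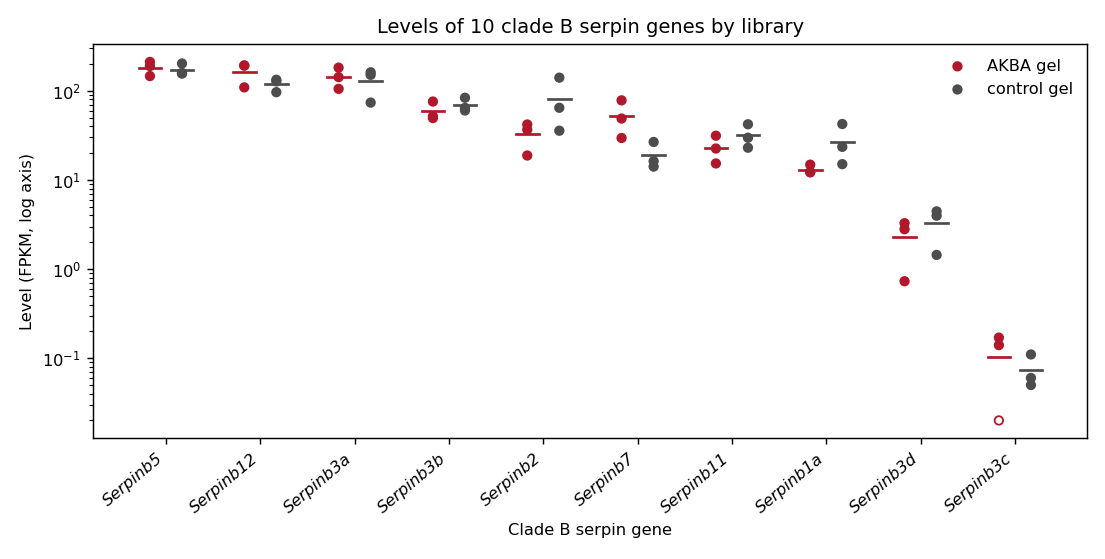
Deposited FPKM (log axis) of the 10 genes, ordered by level, with AKBA gel (red) left of control gel (grey). Points are libraries, bars are means, and the open circle at the bottom marks Serpinb3c listed at 0 in 1 AKBA library. Serpinb5, Serpinb12 and Serpinb3a have the highest means, and Serpinb3c lies below 0.2 FPKM in every library.

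Fold changes were fitted over all 17023 genes that passed the filter, with edgeR's quasi-likelihood test and Benjamini-Hochberg adjustment at 0.05. That test called 0 genes of the whole table (0.0%) and none of the 9 genes tested here. At an unadjusted p under 0.05 it gave 2 of the 9 as lower with AKBA gel (7.01% of all genes) and 1 as higher (6.45%). DESeq2, run beside it, called Serpinb7 as higher (0.503% of 17501 genes) and none of the 9 as lower (1.15%), and gave Serpinb3c no adjusted p. The 9 had a median log2 fold change (AKBA gel relative to control gel) of -0.27, with 5 values below 0 and 4 above, against a median of 0.0037 over all genes.

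Serpinb7, also known as megsin, is an inhibitor whose human counterpart is lost in a hereditary thickening of palm and sole skin. It was higher with AKBA gel. It was at 97.9, 155 and 54.2 CPM in the AKBA libraries in order of replicate number, against 51.1, 26.8 and 34.6 CPM in the control libraries. The groups did not overlap, although AKBA replicate 3 lay just above control replicate 1. Every AKBA library lay above every control library for 1 of the 9 genes and for 9.28% of all genes tested, and none of the 9 had the opposite order (9.1%). The log2 fold change was 1.45 ± 0.39 (SE), with an edgeR adjusted p of 0.331, and 1.44 by DESeq2 with an adjusted p of 0.012. With 1 library left out at a time it lay between 1.02, without AKBA replicate 2, and 1.76, without AKBA replicate 3. The authors' deposited table gives 1.44 with an adjusted p of 0.00279 and marks the gene as significant, as it does 0.241% of its genes as higher. The sum of the upper layer markers, most of it Krt1 and Krt10, was 61361 CPM in AKBA replicate 2 and 33462 CPM in AKBA replicate 3, below the 37605 CPM of control replicate 1. Of these 6 markers Krt1, Krt10, Lor and Ivl were highest in AKBA replicate 2 and Dsg1a in AKBA replicate 1, while Dsc1 was highest in control replicate 3 (log2 fold change -0.37 ± 0.25). The part of these markers in the Serpinb7 values was not tested.

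Serpinb2 and Serpinb1a had lower means with AKBA gel, with a wide spread among control libraries. Serpinb2 encodes plasminogen activator inhibitor 2, an inhibitor of urokinase made by keratinocytes and macrophages. It was at 88.1, 99.7 and 41.4 CPM with AKBA gel and at 82.0, 147 and 360.0 CPM with control gel. Control replicate 3 stood far above the other libraries, and control replicate 1 lay below 2 of the AKBA libraries. The log2 fold change was -1.36 ± 0.55, with an edgeR adjusted p of 0.353 and a DESeq2 adjusted p of 0.393, and without control replicate 3 it was -0.59.

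Serpinb1a is a mouse counterpart of the human leukocyte elastase inhibitor, which blocks the serine proteases of neutrophils. It was at 29.5, 24.1 and 22.2 CPM with AKBA gel and at 28.6, 44.3 and 89.9 CPM with control gel. The AKBA libraries lay close together, and control replicate 1 lay within their range. The log2 fold change was -1.10 ± 0.38, with an edgeR adjusted p of 0.339 and a DESeq2 adjusted p of 0.0776, and without control replicate 3 it was -0.53. The authors' deposited table marks it as significantly lower (log2 fold change -1.06, adjusted p 0.0404), a mark carried by 0.331% of its genes, and gives Serpinb2 at -1.36 with an adjusted p of 0.0701.

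The summed level of 4 keratins of activated epidermis (Krt6a, Krt6b, Krt16 and Krt17) was 1526 to 5307 CPM with AKBA gel against 7015 to 30453 CPM with control gel, highest in control replicate 3. This sum was lowest in AKBA replicate 2, the AKBA library with the highest Serpinb2 level (99.7 CPM). Of the 4, 3 had AKBA libraries wholly below control libraries (9.1% of all genes tested). Krt17 overlapped, at 744 to 1139 CPM with AKBA gel against 804 to 2115 CPM with control gel (-0.61 ± 0.36). The sum of 6 basal layer markers was 15248, 10854 and 13579 CPM with AKBA gel against 14170, 20879 and 32900 CPM with control gel. Of these 6, 4 had negative log2 fold changes and 2 positive, among them Krt15 (1.27 ± 0.38). All 5 macrophage markers were tested and 3 had AKBA libraries wholly below control libraries (9.1% of all genes tested), with sums of 511 to 727 CPM with AKBA gel against 821 to 995 CPM with control gel. The macrophage sum was highest in control replicate 3. Among AKBA libraries it was lowest in replicate 2 and highest in replicate 3, where Serpinb2 was lowest (41.4 CPM). The neutrophil marker Ly6g was at 0 counts in all 6 libraries, and the 6 neutrophil markers summed to 0.638 to 1.18 CPM with AKBA gel against 1.20 to 1.57 CPM with control gel. The part of keratinocyte state or macrophage content in the Serpinb2 and Serpinb1a values was not tested.

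**Figure D2:**
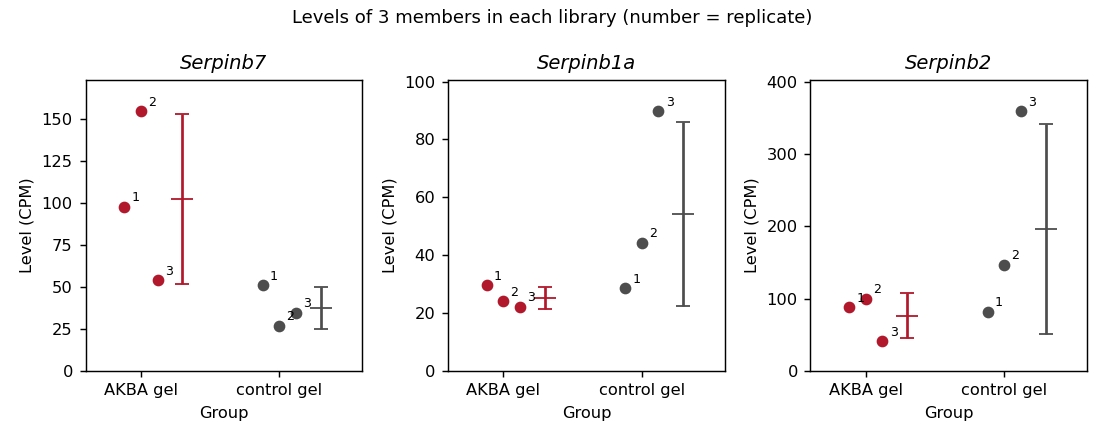
Level (CPM) of Serpinb7, Serpinb1a and Serpinb2 in each library, with AKBA gel (red) left of control gel (grey), the replicate number beside each point and the mean ± SD at its right. The Serpinb7 groups do not overlap, and control replicate 3 is the highest library for Serpinb1a (89.9 CPM) and Serpinb2 (360.0 CPM).

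Set against each other within a library, which does not depend on how libraries are scaled, Serpinb7 and Serpinb2 had a ratio of FPKM values of 1.33, 1.87 and 1.57 with AKBA gel and 0.748, 0.219 and 0.115 with control gel. Serpinb7 was above Serpinb2 in all 3 AKBA libraries and below it in all 3 control libraries. This pair was chosen after its values were seen and carries no test.

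The Serpinb3 copies are the mouse relatives of the human squamous cell carcinoma antigens SERPINB3 and SERPINB4, known as inhibitors of lysosomal cysteine cathepsins and of chymotrypsin-like proteases and as markers of inflamed squamous epithelium in humans. Their sum did not differ detectably between the gels. The 4 copies together had 439, 259 and 303 CPM with AKBA gel against 369, 217 and 428 CPM with control gel, and the groups overlapped. The log2 fold change of the sum was -0.02 ± 0.29, with an edgeR adjusted p of 0.985, and leaving out 1 library moved it between -0.27 and 0.19.

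Within the sum, Serpinb3a was at 304, 174 and 218 CPM with AKBA gel and at 258, 117 and 269 CPM with control gel (log2 fold change 0.11 ± 0.33, edgeR adjusted p 0.913). Serpinb3b was at 131, 84.6 and 82.0 CPM with AKBA gel against 106, 98.5 and 154 CPM with control gel (-0.27 ± 0.24, edgeR adjusted p 0.646). Per length, Serpinb3a made up 69.7%, 67.7% and 72.2% of the sum with AKBA gel and 70.1%, 54.5% and 63.3% with control gel, so the copies kept the same order in every library. Serpinb3d was at 0.904 to 4.07 CPM with AKBA gel and at 1.70 to 5.29 CPM with control gel (-0.57 ± 0.59, edgeR adjusted p 0.699).

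Serpinb3c was near absent, at 6, 0 and 5 counts with AKBA gel and 2, 2 and 4 counts with control gel, while Serpinb3b had 1592 to 2669 counts with AKBA gel and 2234 to 3213 with control gel. The stretches at their RefSeq starts, shown above, differ at 2 of 116 bases. In the GENCODE M21 annotation the 2 genes overlap on the same strand, since the span of Serpinb3b (chromosome 1, 107153940 to 107278361) takes in nearly all of Serpinb3c (107271201 to 107278371). The longest open reading frames of the 4 copies were 86.3% to 93.1% identical. Of all stretches of 50 bases in a Serpinb3b transcript 14.3% occur in another copy, and 0.515% of those of 100 bases. Reads could thus be shared between copies, and their split is uncertain. The sum does not depend on that split, but Gm8084 and Gm15390, which overlap Serpinb3b on the same strand, were not compared with the copies.

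The remaining 3 genes overlapped between the groups. Serpinb12 was at 492, 487 and 256 CPM with AKBA gel and at 312, 234 and 363 CPM with control gel, with a log2 fold change of 0.44 ± 0.28 (edgeR adjusted p 0.521). Serpinb5 was at 533, 588 and 377 CPM with AKBA gel against 428, 416 and 608 CPM with control gel (0.05 ± 0.22, edgeR adjusted p 0.951), the value nearest 0 of the 9. Serpinb11, whose mouse protein is known to inhibit trypsin while the human one does not, was at 70.2, 33.9 and 46.1 CPM with AKBA gel against 63.7, 48.7 and 100.5 CPM with control gel (-0.50 ± 0.33, edgeR adjusted p 0.532).

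**Figure D3:**
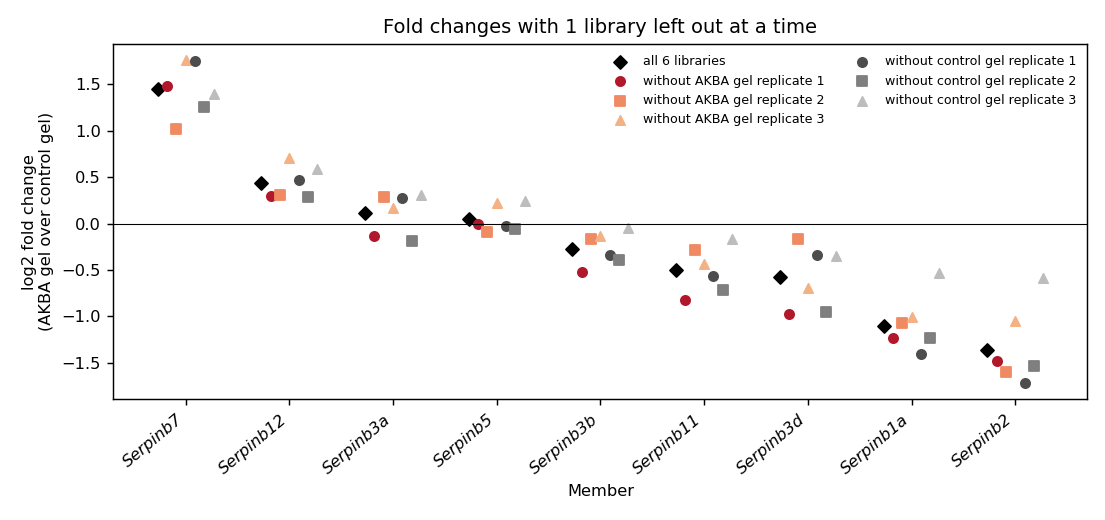
Log2 fold change (AKBA gel relative to control gel) for the 9 tested genes with all 6 libraries (black diamonds) and with 1 library left out (red for AKBA, grey for control). Serpinb7 stays above 1 and Serpinb2 and Serpinb1a stay below -0.5, while Serpinb3a and Serpinb5 change sign.

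The genes lie in the 2 clade B clusters of the mouse genome (GENCODE M21, GRCm38). On chromosome 1 lie 9 of the 10, between 106861173 and 107535478, and Serpinb1a lies on chromosome 13 (32842092 to 32851185). Neighbours on chromosome 1 had fold changes of both signs. Serpinb11 (107361198 to 107380475, log2 fold change -0.50), Serpinb7 (107399655 to 107452689, 1.45) and Serpinb2 (107511423 to 107535478, -1.36) follow one another on the plus strand. Serpinb10, annotated as a polymorphic pseudogene, overlaps the end of Serpinb2 on the same strand (107529003 to 107549271), so their reads could be confused. Its row with counts held 26 to 35 counts per AKBA library and 19 to 55 per control library. These counts cannot show how reads of the shared stretch were split between the genes. On chromosome 13, Serpinb1a (-1.10) lies beside Serpinb1c (1.62).

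**Figure D4:**
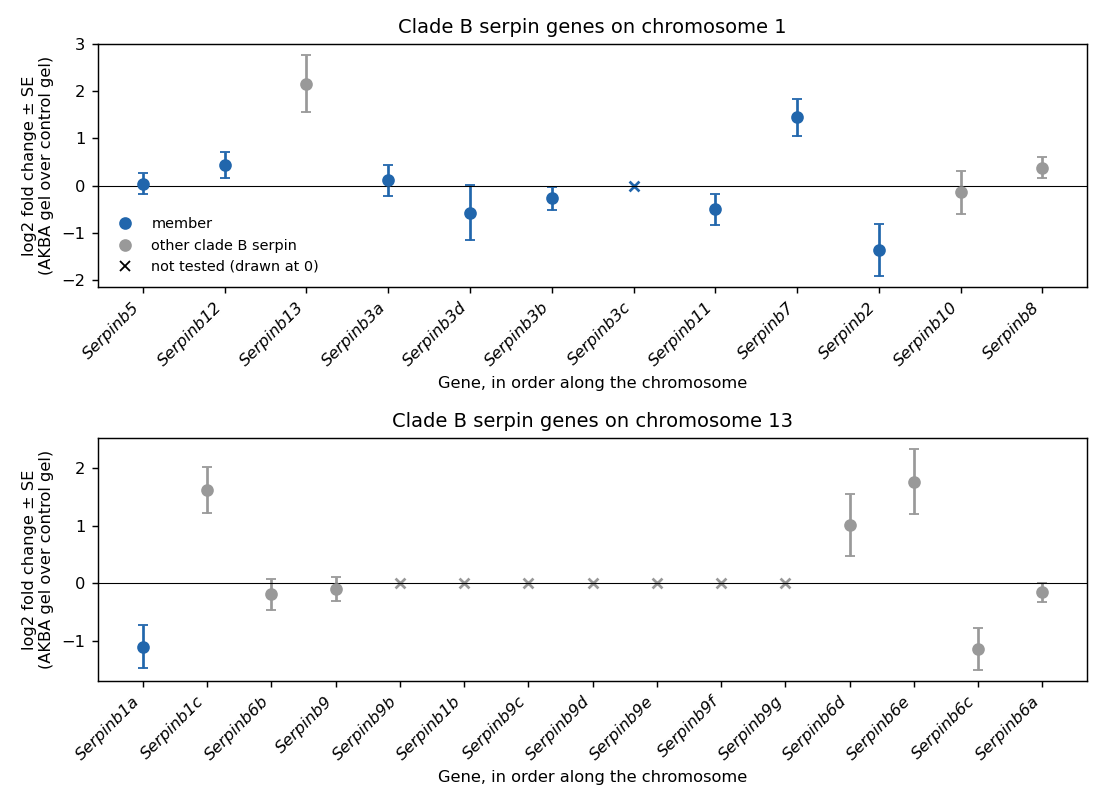
Log2 fold change ± SE (AKBA gel relative to control gel) for clade B serpin genes in their order along chromosomes 1 and 13, with the genes described here in blue and the rest in grey. Crosses mark genes below the count filter. Serpinb7 (1.45) and Serpinb2 (-1.36) are next to each other with opposite signs.

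Of 18 further clade B serpins listed, 17 were in the table and 10 were tested. None was called by edgeR, and at an unadjusted p under 0.05 1 was lower (7.01% of all genes) and 3 were higher (6.45%). Their median was 0.14, but it was -0.12 with no filter and -0.13 with DESeq2, and with 1 library left out it lay between 0.0052, without control replicate 2, and 0.49, without control replicate 3. Serpinb13, known as headpin and an inhibitor of cathepsins K and L in humans, was at 4.12, 8.40 and 2.05 CPM with AKBA gel against 1.48, 1.31 and 0.431 CPM with control gel (2.16 ± 0.61, edgeR adjusted p 0.331, DESeq2 adjusted p 0.0169). Serpinb6c was at 24.3, 18.2 and 16.7 CPM with AKBA gel against 26.6, 33.1 and 71.5 CPM with control gel (-1.15 ± 0.36, edgeR adjusted p 0.334, DESeq2 adjusted p 0.0519). Of the 10 tested, 4 had every AKBA library above every control library (9.28% of all genes tested), among them Serpinb13, Serpinb6e and Serpinb1c. Only 1 of the 10, Serpinb6c, had the opposite order (9.1%). Serpinb6e was at 7.41, 9.41 and 4.69 CPM with AKBA gel against 4.09, 1.44 and 0.767 CPM with control gel (1.77 ± 0.56, edgeR adjusted p 0.334, DESeq2 adjusted p 0.047). Serpinb1c was at 1.28, 0.957 and 1.11 CPM with AKBA gel against 0.524, 0.175 and 0.383 CPM with control gel (1.62 ± 0.40, edgeR adjusted p 0.331). DESeq2 thus called Serpinb13 and Serpinb6e as higher (0.503% of 17501 genes). The authors' deposited table marks both as significantly higher (0.241% of its genes) and Serpinb6c as significantly lower (0.331%). The abundant Serpinb6a (208 ± 33.4 with AKBA gel against 232 ± 34.6 CPM with control gel) and Serpinb8 (165 ± 40.6 with AKBA gel against 126 ± 23.8 CPM with control gel), a furin inhibitor in humans, had log2 fold changes of -0.16 ± 0.17 and 0.38 ± 0.22.

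Of 14 proteases listed as possible targets of clade B serpins, not each an established target, 13 were in the table and 11 were tested. None was called by edgeR, and at an unadjusted p under 0.05 2 were lower (7.01% of all genes) and 0 higher (6.45%). The median was -0.31, against -0.15 with a filter of 5 CPM and -0.17 without control replicate 3. Of the 11 tested, 3 had every AKBA library below every control library (9.1% of all genes tested), among them Plat and Prtn3. The opposite order was found for 0 (9.28%). Plat, the tissue plasminogen activator, was at 24.0, 17.8 and 26.6 CPM with AKBA gel against 31.8, 33.3 and 31.7 CPM with control gel (-0.50 ± 0.16, edgeR adjusted p 0.334). All 4 endothelial markers had negative log2 fold changes, with a median of -0.49 and summed levels of 166 to 302 CPM with AKBA gel against 288 to 380 CPM with control gel. Of these 4 markers 2, Pecam1 (-0.50 ± 0.17) and Cdh5 (-0.52 ± 0.20), had AKBA libraries wholly below control libraries (9.1% of all genes tested). The part of endothelial cells in the Plat values was not tested. Urokinase itself, Plau, was at 51.2, 46.1 and 44.6 CPM with AKBA gel against 53.9, 46.9 and 74.9 CPM with control gel (-0.31 ± 0.18). The kallikrein Klk7, which cuts the junctions of shedding corneocytes, was at 1309, 1170.1 and 1006 CPM with AKBA gel against 1182, 917 and 1815 CPM with control gel (-0.17 ± 0.27), and the cathepsin Ctsl at 659, 501 and 544 CPM with AKBA gel against 559, 436 and 705 CPM with control gel (0.0029 ± 0.21). Prtn3, a neutrophil protease, was tested at 0.442 to 0.682 CPM with AKBA gel against 0.786 to 1.29 CPM with control gel (-0.82 ± 0.33), while Elane and Ctsg were below the filter.

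Serpine2, protease nexin 1, is a serpin of another clade that also inhibits urokinase. It was at 31.2, 28.5 and 37.7 CPM with AKBA gel against 39.1, 43.8 and 48.0 CPM with control gel (-0.43 ± 0.14, edgeR adjusted p 0.336). The urokinase receptor Plaur overlapped between the groups (-0.64 ± 0.34).

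Likeness of pattern was measured as the root mean square difference of log2 CPM, centred per gene, over the 6 libraries and 12253 genes with a mean of at least 5 CPM. The genes nearest to Serpinb2 were the water and glycerol channel Aqp3 (0.329), Tmem125 (0.358), Tubb2b (0.358), Rhof (0.360) and Sfn (0.375), against 0.947 for the spread of Serpinb2 itself. For the Serpinb3 sum, with a spread of 0.373, they were Mlxipl (0.0630), Cdo1 (0.0896), Pde4dip (0.119), Hrc (0.126) and A530016L24Rik (0.129). Neighbours of Serpinb7 and Serpinb1a were added after their values were seen. Those of Serpinb7 (spread 0.857) were Krt23 (0.110), the connexin Gjb5 (0.137), the envelope protein Lor (0.144), Chd3os (0.157) and Lce1a2 (0.181). Those of Serpinb1a (spread 0.686) included Tmem125 (0.0896), Aqp3 (0.105) and the chromosome 13 serpin Serpinb6c (0.110). Among the 9 genes themselves the nearest pair was Serpinb3b and Serpinb11 (0.223) and the farthest was Serpinb2 and Serpinb7 (1.51).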

How the data were processed

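The members and gene lists were chosen with earlier results of these data known. Per the labels' protocols, TRIzol was used for RNA and a TruSeq kit for the libraries. The authors deposited whole-number counts per gene and FPKM values for each library, a group-level FPKM, and their own comparison with log2 fold changes and p-values, raw and adjusted, whose method the file headers leave out. The submitters' processing notes name GRCm38, RSEM, edgeR and CASAVA 1.8. For the role of each, the annotation and the use of strand in counting, nothing is stated there.

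The deposited counts were tested with edgeR 4.0.16 (R 4.3.3), TMM scaling, the default low-count filter and a 2-sided quasi-likelihood F test over all genes. SE is the log2 fold change divided by the square root of F. CPM uses TMM-scaled library sizes, and log2 CPM a prior count of 2. DESeq2 1.42.0 was an alternative. The script was tested on simulated data with a fixed spread between libraries that was not taken from these data. That test does not show how the fit performs at the spread found here. No replicates matched within counting error (chi-square per degree of freedom at least 28.3), and each library was treated as 1 sample. This does not show that libraries came from separate mice. Floors and counts cover counting error only. Genes named outside the 10 were mostly the most abundant of a list, those with an unadjusted p under 0.05, nearest in pattern, or cell type markers. Plau, Elane and Ctsg were named as further proteases of their list. Serpinb10, Gm8084 and Gm15390 were named for their overlap with genes of the 10. Serpinb10 has 2 rows, and the row with counts was used. A gene of the lists is not reported here.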

Additional observations from a re-analysis of the deposited data

How the results depend on the processing

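Beside the 6 libraries with default settings, 12 alternatives were run. The whole table had 289 calls with DESeq2 and 0 to 14 with 1 library left out (14 without control replicate 1), and 0 with DESeq2 size factors, either other filter, the replicate block, or when a pair (AKBA replicate 2, control replicate 3) was left out. Of the 10 genes, 1 (Serpinb7) was called with DESeq2 and 0 under every other alternative. The number lower at an unadjusted p under 0.05 was 1 with the replicate block or DESeq2, 0 with the pair left out and 0 to 3 with 1 library left out, and the number higher was 1 to 2. The log2 fold change of the Serpinb3 sum was 0.0038 with the replicate block, 0.34 with the pair left out and -0.27 to 0.19 with 1 library left out. With the pair left out Serpinb3b was at 0.056, Serpinb3d at 0.060, Serpinb11 at 0.049, Serpinb7 at 0.96, Serpinb1a at -0.50 and Serpinb2 at -0.82. With 1 library left out Serpinb3a ranged from -0.19 to 0.31 and Serpinb5 from -0.087 to 0.24. The median of the other clade B serpins was -0.12 without the filter and -0.13 with DESeq2, where more genes of low count were tested, 0.42 with the pair left out and 0.0052 to 0.49 with 1 library left out. The median of the listed proteases was -0.15 with the filter of 5 CPM, -0.14 with the pair left out and -0.43 to -0.17 with 1 library left out. The cause of the other shifts was not tested. Libraries of the same replicate number did not vary together (correlation of deviations 0.07, 0.02 and -0.33 for numbers 1 to 3). Pairs of unlike numbers ranged from -0.48 (AKBA replicate 1, control replicate 2) to 0.43 (AKBA replicate 3, control replicate 2). Whether libraries shared batches was not tested. With the block, unadjusted p under 0.05 was met by Serpinb7 and Serpinb3d. At this depth Serpinb3c, with 0 to 6 counts, could not be compared.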
